A study of Mus musculus with 3 samples.

Results

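Oxidative phosphorylation was followed through 33 genes, of the 32285 genes in the count matrices: all 13 protein-coding genes of the mitochondrial chromosome, whose symbols begin with mt-, and 20 nuclear genes for subunits of the respiratory chain, ATP synthase and the electron carrier cytochrome c. The genes were taken by symbol, and each symbol was found. The study profiled single cells of colonic lamina propria mononuclear cell preparations from C57/BL6J mice with acute colitis, made by 1.5% dextran sulfate sodium (DSS) in the drinking water for 7 days and then plain water for 3 days. Each mouse group received 250 µg of antibody 3 times a week: rat IgG as control (RatIgG), clone DATK32 or clone MECA367. All groups, the control included, carry the colitis and an injected antibody, and untreated mice are not analysed here. Viable CD45-positive cells were sorted and each group gave 1 library, so no replicate check exists, and no p-value is given. The number of mice behind a library is not given in the sources used here. In the labels, ontamalimab is paired with DATK32 and vedolizumab with MECA367. DATK32 is generally known as an antibody to the integrin alpha4beta7 and MECA-367 as an antibody to its vascular ligand MAdCAM-1, so the groups are named here by clone.

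Oxidative phosphorylation makes ATP in the inner mitochondrial membrane. Complexes I to IV pass electrons from NADH and succinate to oxygen, and all of these but complex II pump protons. Cytochrome c carries electrons between complexes III and IV, and complex V uses the proton gradient to make ATP. Complexes I, III, IV and V are built from both genomes, complex II and cytochrome c from the nuclear genome alone. Colon epithelium is known to oxidise butyrate and to depend on this pathway, while mature neutrophils rely largely on glycolysis. A high share of mitochondrial transcripts is also widely used as a sign of damaged cells, which is why such barcodes are often left out.

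Mitochondrial genes lie close together and some share bases, which bears on which gene a read is given to. In the GENCODE M21 annotation (GRCm38), mt-Atp8 and mt-Atp6 share 43 bases of chromosome M, 7927 to 7969, and mt-Nd4l and mt-Nd4 share 7 bases, 10167 to 10173, all on the plus strand. Both stretches are printed because the short partners, mt-Atp8 and mt-Nd4l, are among the members that differed between libraries. Capitals mark the bases that belong to both reading frames.
mt-Atp8 and mt-Atp6, chrM:7903-7993: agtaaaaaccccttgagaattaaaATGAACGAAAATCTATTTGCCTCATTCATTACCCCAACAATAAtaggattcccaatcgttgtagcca
mt-Nd4l and mt-Nd4, chrM:10143-10197: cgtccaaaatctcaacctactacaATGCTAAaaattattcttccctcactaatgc
The annotated transcripts are 204 bases long for mt-Atp8, 297 for mt-Nd4l and 348 for mt-Nd3. mt-Nd5 and mt-Nd6, on opposite strands, share 14 bases.

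Levels are raw UMI counts (each UMI 1 captured molecule) summed over the barcodes of a class and library, scaled to a total of 1000000 UMIs of the nuclear genome (CPM below), so that mitochondrial transcripts do not dilute nuclear ones. A difference was called higher or lower where it reached 1.5-fold and the exact Poisson 95% intervals were apart. These intervals cover counting error only, not the spread between mice. Log2 ratios had 1 count added to each side.

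The RatIgG, DATK32 and MECA367 libraries kept 10809, 8430 and 8318 barcodes with at least 500 UMIs and 200 genes, with medians of 1938, 2105 and 2069 UMIs. They held 30344638, 28014800 and 27753591 UMIs in all, and between 18 and 20 barcodes were shared by any pair of libraries. Clusters built without the member genes were named from marker lists, as epithelial-like, neutrophil-like and so on. Although CD45-positive cells had been sorted, 3378, 2237 and 1472 barcodes were epithelial-like, and their Ptprc (CD45) level was 7.07, 5.09 and 4.59 CPM. Stromal-like and endothelial-like barcodes were present too. Clusters 3 and 4 met no class: cluster 3 was led by the noncoding RNA genes Gm26917, Rmrp and Gm42418, and cluster 4 by cell cycle and histone genes. No class was met by clusters 8, 9, 14, 21 and 27 either. Cluster 8 was led by Calca, Tnfrsf4 and Icos, and cluster 9 by Etv1, Gpc3 and Enpep. Squamous-epithelium-like and mesothelial-like classes had under 100 barcodes in a library, so they are not among the 9 named classes below.

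Epithelial-like barcodes held the highest level of the nuclear members of the 9 named classes in each library, at 13756 CPM in RatIgG, 12915 in DATK32 and 13101 in MECA367. Plasma-cell-like barcodes held the lowest, at 4594, 4294 and 3981. The T-cell-like class lay between, at 7689, 7091 and 6222, and the monocyte- or macrophage-like class at 6119, 6463 and 5780. The last of these, the NK- or ILC1-like class (6047, 6476 and 5892) and the endothelial-like class of RatIgG (6099) were within 1.5-fold of each other. By single nuclear members, the plasma-cell-like class was lowest for 14 of the 20 in RatIgG, 15 in DATK32 and 12 in MECA367. The endothelial-like class was lowest for 2 in DATK32 and 7 in MECA367. With immunoglobulin genes left out of the denominator, the nuclear members of plasma-cell-like barcodes were no longer called lower than those of all other barcodes, the log2 ratio moving from -1.30 to -0.36 in RatIgG, from -1.30 to -0.29 in DATK32 and from -1.13 to -0.03 in MECA367.

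**Figure D1:**
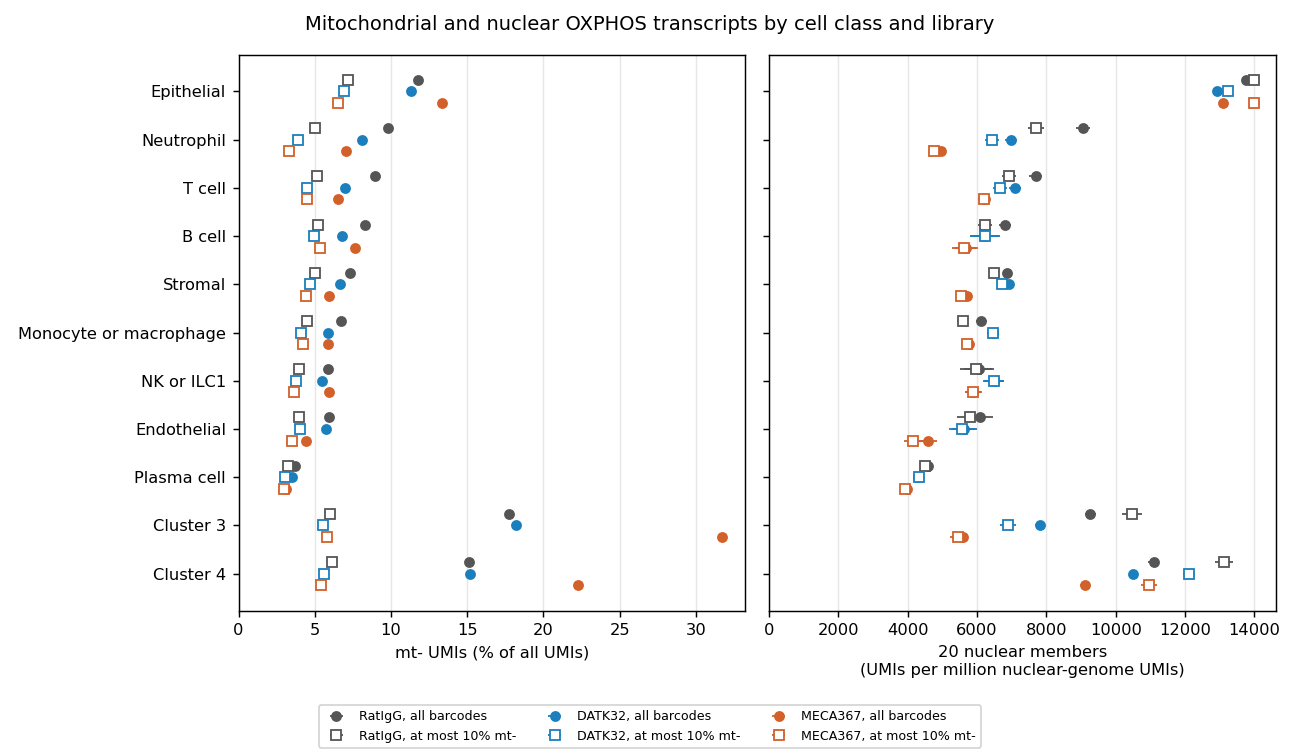
Share of mitochondrial (mt-) UMIs among all UMIs (left, percent) and summed level of the 20 nuclear members (right, CPM) in 9 named cell classes and 2 unnamed clusters, for 3 libraries. Filled circles are all barcodes, open squares those with at most 10% mt- UMIs, and lines are exact 95% intervals of counting error; epithelial-like barcodes lie furthest right for the nuclear members, and cluster 3 of MECA367 furthest right for mt- UMIs, at 31.7%.

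Mitochondrial transcripts followed a like order, with an exception outside the named classes. They made up 11.8%, 11.3% and 13.3% of UMIs in epithelial-like barcodes of RatIgG, DATK32 and MECA367, and 3.69%, 3.53% and 3.10% in plasma-cell-like barcodes. The UMI total of plasma-cell-like barcodes includes immunoglobulin UMIs. Clusters 3 and 4 exceeded every named class, at 17.8%, 18.2% and 31.7% and at 15.1%, 15.2% and 22.3%. All 13 mt- members were highest in the epithelial-like class among the named classes in each library. Against all other barcodes, however, their summed level in that class was not called higher, with log2 ratios of 0.44, 0.24 and 0.40. Those other barcodes include clusters 3 and 4. Among barcodes with at most 10% mt- UMIs it was, at 0.67, 0.66 and 0.73.

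At the top of the order, single nuclear members followed the sum with few exceptions. Of the 20, 19 were highest in the epithelial-like class in RatIgG, 18 in DATK32 and 19 in MECA367. Ndufa1, a complex I accessory subunit encoded on the X chromosome, was the exception in every library, and Atp5j was highest in stromal-like barcodes of DATK32. The level of Ndufa1 was 299, 349 and 281 CPM in plasma-cell-like barcodes against 254, 300 and 239 in epithelial-like ones, a difference under 1.5-fold. Plasma-cell-like levels of single members keep immunoglobulin UMIs in the denominator, and the order of classes was not tested without them. Of the ATP synthase subunits, Atp5b, part of the catalytic head, stood at 1282, 1223 and 1159 CPM in epithelial-like and at 300.5, 261 and 224 in plasma-cell-like barcodes. Cox4i1, a complex IV subunit, was the highest nuclear member in epithelial-like barcodes, at 2147, 1958 and 2049.

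**Figure D2:**
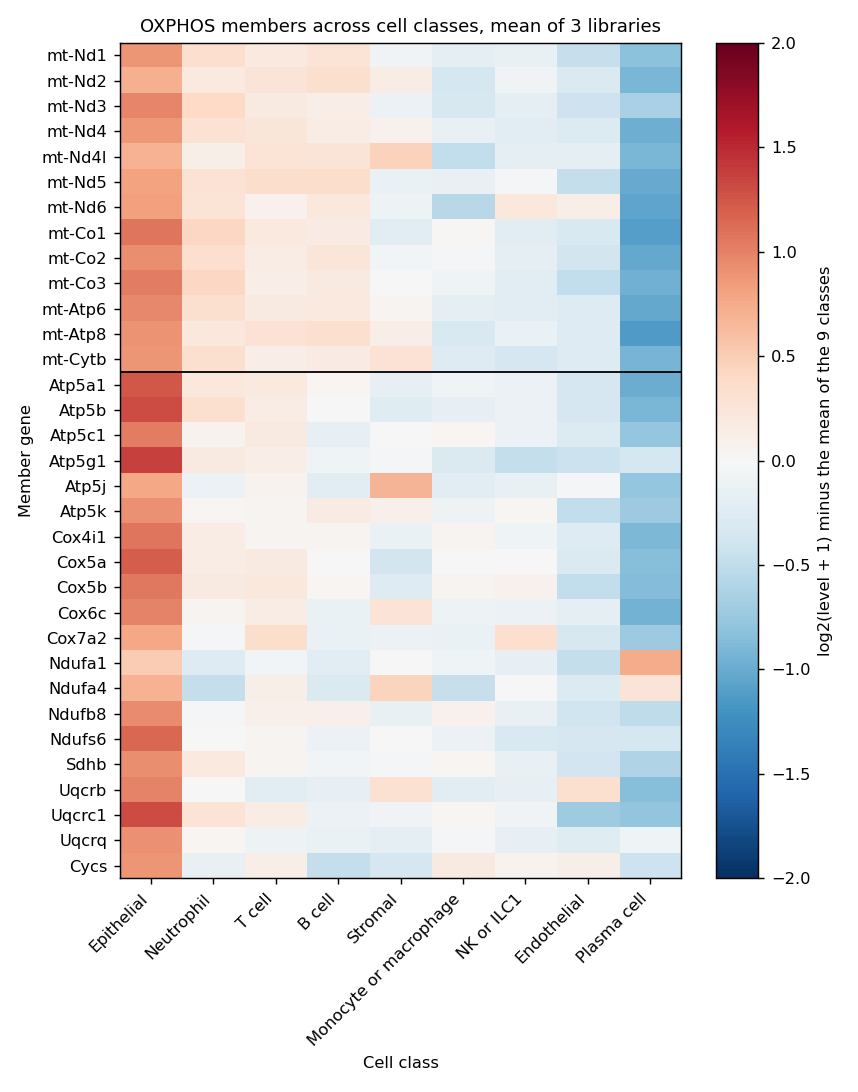
Level of each member (rows; mt- members above the line) in 9 named cell classes (columns), as log2(level + 1) minus the mean of the 9 classes, averaged over 3 libraries. The epithelial-like column is above the mean for every member and the plasma-cell-like column is below it for all but Ndufa1 and Ndufa4. Plasma-cell-like levels keep immunoglobulin UMIs in the denominator.

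Within the epithelial-like class the nuclear members differed by cluster. The cluster led by Car1 and Cyp2c55, genes of surface colonocytes, held 16601, 15640 and 15688 CPM, and that led by Saa1 and Krt20 held 16690, 17768 and 16272. The goblet-type cluster led by Muc2 and Agr2 held 11631, 11059 and 11209. The enteroendocrine-type cluster led by Chgb and Chga held 8918, 6691 and 8200.0, the lowest of these 4 in each library. Shares of mt- UMIs were 22.2%, 23.5% and 28.4% in the Saa1 and Krt20 cluster and 9.48%, 8.87% and 11.3% in the Muc2 cluster. The clusters were made from these same cells, so these values are a description.

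A limit of 10% mt- UMIs removed 31.8%, 30.6% and 29.2% of barcodes from RatIgG, DATK32 and MECA367. Within the epithelial-like class nuclear members did not follow mt- UMIs across the range of barcodes. In epithelial-like barcodes of the 3 libraries together, nuclear members stood at 13092 CPM in barcodes with 0 to 5% mt- UMIs, 13841 at 5 to 10%, 13362 at 10 to 20%, 11004 at 20 to 40% and 7677 above 40%. The other subunits of the pathway went from 26669 in the lowest range to 14194 in the highest. Malat1, a nuclear-retained noncoding RNA, stood at 12087 in the lowest range and 36788 in the highest. The median number of nuclear-genome UMIs in a barcode was 4438 at 5 to 10% and 959.5 above 40%. Above 40% there were 41 barcodes of RatIgG, 48 of DATK32 and 117 of MECA367, so the libraries do not weigh equally in the ranges. Within RatIgG, DATK32 and MECA367, nuclear members stood at 14149, 13384 and 14045 CPM at 5 to 10% and at 7079, 8501 and 7602 above 40%. Malat1 stood at 13705, 13280.4 and 9183 at 5 to 10% and at 45377, 51851 and 30950.0 above 40%. In each library the level of nuclear members was lower, and that of Malat1 higher, above 40% than at 5 to 10%.

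**Figure D3:**
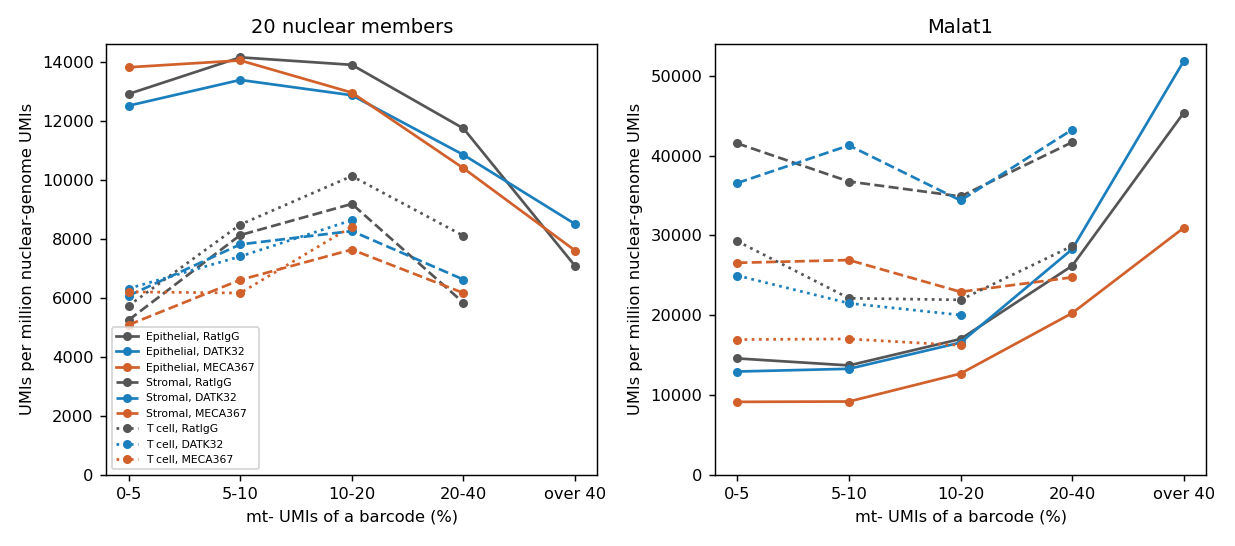
Level of the 20 nuclear members (left) and of Malat1 (right), in CPM, by the mt- percentage of a barcode, for epithelial-like (solid), stromal-like (dashed) and T-cell-like (dotted) barcodes of each library; ranges with under 20 barcodes are not drawn. In epithelial-like barcodes nuclear members are lower above 40% than at 5 to 10%, and Malat1 is higher.

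The DATK32 and RatIgG libraries were compared first. Over all barcodes no member was called, beside 1.49% of 15244 genes called higher and 1.94% called lower. The summed mt- members stood at a log2 ratio of 0.01 and the nuclear members at -0.07. Within the 9 named classes no mt- member was called in any class, and nuclear members were called higher in 2 pairs of gene and class and lower in 5. In B-cell-like barcodes (background 1.85% higher and 2.38% lower) Atp5a1, Atp5b and Atp5g1 were lower, at -0.60, -0.64 and -0.59, and Atp5k was higher, at 0.60. In neutrophil-like barcodes (2.06% and 3.18%) Ndufb8 and Uqcrc1 were lower, both at -0.61. In NK- or ILC1-like barcodes (1.27% and 1.62%) Cox6c was higher, at 0.59.

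The 5 lower calls were lost, and the 2 higher ones were not, when immune barcodes with over 0.5% epithelial marker UMIs were left out. Without those barcodes no member was called lower in DATK32, and 3 mt- and 5 nuclear pairs were called higher. Atp5k was higher in B-cell-like (1.19; background 2.18%) and T-cell-like barcodes (0.68; 0.713%), and Cox6c in B-cell-like (0.86) and NK- or ILC1-like ones (0.91; 1.27%). mt-Nd3 was higher in neutrophil-like (0.59; 1.54%) and plasma-cell-like barcodes (0.61; 1.31%), mt-Nd4l in B-cell-like ones (0.62) and Cycs in monocyte- or macrophage-like ones (0.59; 0.886%). The count of lower nuclear pairs depended on other choices as well. It was 0 among barcodes with at most 10% mt- UMIs and with median-of-ratios scaling, and 16 with the highest doublet scores removed, when the summed nuclear ratio of the neutrophil-like class was -0.94 and called lower, from -0.37.

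The MECA367 and RatIgG libraries differed in more members; the control is the same RatIgG library as above. Over all barcodes mt-Nd3, Atp5k and Uqcrc1 were called lower, at log2 ratios of -0.60, -1.09 and -0.85, and no member higher, beside 9.6% of genes called higher and 8.31% lower. The summed ratio was 0.16 for mt- and -0.36 for nuclear members. As a mean over barcodes the mt- ratio was 0.64, which was called higher. The same 3 members were called higher in DATK32 than in MECA367, beside 6.25% higher and 9.71% lower. All-barcode values pool classes whose sizes differed between libraries. Epithelial-like barcodes were 3378 of 10809 in RatIgG, 2237 of 8430 in DATK32 and 1472 of 8318 in MECA367, and neutrophil-like ones 391, 337 and 758. Squamous-epithelium-like barcodes were 250, 190 and 0, and those of cluster 21, led by Ctrb1 and Prss2, were 36, 0 and 2. How far class make-up bore on the all-barcode ratios was not tested, so they are not read as differences within cells.

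Within the named classes, 24 mt- and 29 nuclear pairs of gene and class were called lower in MECA367 than in RatIgG and none higher. The neutrophil-like class held 6 mt- and 14 nuclear ones, beside 26.7% of its genes, and the T-cell-like class 4 and 5, beside 12.8%. The endothelial-like class had 3 mt- members and 2 nuclear ones lower (4.32%), and the monocyte- or macrophage-like class 4 and 2 (7.92%). In the plasma-cell-like (10.9%) and stromal-like (9.6%) classes 2 of each were lower, and in the B-cell-like class 2 and 1 (4.36%). The NK- or ILC1-like class had 1 mt- member lower (2.69%). The counts of nuclear members (of 20) are near the background in the plasma-cell-like, stromal-like, monocyte- or macrophage-like and B-cell-like classes. The totals of 24 and 29 became 10 and 14, with 1 mt- and 4 nuclear pairs higher, when classes came from each barcode's own marker UMIs. With median-of-ratios scaling they became 14 and 16, with 1 nuclear pair higher. Without immune barcodes holding epithelial RNA, 12 nuclear pairs were lower and 2 higher.
mt-Nd3 (chrM:9459-9806, plus strand), a core subunit of complex I, stood at 2322 CPM in RatIgG, 3188 in DATK32 and 1528 in MECA367 over all barcodes. Its share of mt- UMIs was 2.02%, 2.75% and 1.19%. It was called lower in MECA367 than in RatIgG in 8 of 9 named classes, with log2 ratios from -1.42 (endothelial-like) to -0.52 (epithelial-like, not called). Within the mt- limit it was called lower in all 9. mt-Atp8, a complex V subunit, made up 1.09%, 1.1% and 0.73% of mt- UMIs and was lower in 7 classes, from -1.05 to -0.38.

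Among nuclear members the clearest difference was in Atp5k (chr5:108433244-108434448, minus strand), the e subunit of ATP synthase. It stood at 455 CPM in RatIgG, 497 in DATK32 and 214 in MECA367. In epithelial-like barcodes it stood at 566, 597 and 317, in T-cell-like ones at 313, 375 and 152 and in monocyte- or macrophage-like ones at 314, 341 and 123. MECA367 was the lowest of the 3 in each of the 9 classes. Atp5k was called lower than RatIgG in 8 of them, with ratios from -2.54 in endothelial-like barcodes, where MECA367 had 13 counts, to -0.80 in NK- or ILC1-like ones, not called. Uqcrc1, a core protein of complex III, stood at 261, 237 and 145 over all barcodes and was called lower in 5 of 8 classes where it was measured. Without immune barcodes holding epithelial RNA, mt-Nd3 was lower in 8 classes, mt-Atp8 and Atp5k in 7 each, and Uqcrc1 in 3.

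Of the members measured in all 9 classes, 13 mt- and 18 nuclear, mt-Nd3, mt-Atp8 and Atp5k were lower in at least 5, beside 4.24% of 1414 such genes. No member was higher in as many, beside 1.49%. The same 3 passed within the mt- limit (3.61%) and without immune barcodes holding epithelial RNA (2.34%). Between DATK32 and RatIgG no member passed in either direction (0.283% higher, 0.212% lower). The minimum of 5 was chosen after the values were seen, and classes of 1 library share that library's handling. Against MECA367 rather than RatIgG, DATK32 was higher in at least 5 classes for mt-Nd3, mt-Nd4l, mt-Atp8 and Atp5k, beside 3.32%, and both comparisons share the MECA367 library. Some abundant mt- members kept similar shares of mt- UMIs over all barcodes: mt-Atp6 made up 21.7%, 20.4% and 22.4%, mt-Co1 19.7%, 20.2% and 18.4%, and mt-Cytb 8.13%, 8.07% and 8.71%. Shares of the remaining mt- members are not given here. mt-Atp8, mt-Nd3 and Atp5k have short annotated transcripts, of 204, 348 and 321.5 bases, and Uqcrc1 has 1653. Lengths of the RNAs themselves were not measured, and mt-Atp8 and mt-Nd4l share bases with mt-Atp6 and mt-Nd4. The 339 nuclear genes with transcripts under 500 bases had a median log2 ratio of -0.01 between MECA367 and RatIgG, with quartiles of -0.57 and 0.72. Across the 13 mt- members, which share the library, the ratio had a Spearman rho with transcript length of 0.58 over all barcodes and of 0.12 to 0.57 in the named classes, the shorter ones being lower in MECA367. Across the 20 nuclear members rho was -0.075 over all barcodes. Between DATK32 and RatIgG, rho across the nuclear members was -0.66 over all barcodes, the shorter ones being higher in DATK32. In the named classes it went from -0.74 (B-cell-like) to -0.25 (endothelial-like). Across the mt- members rho in that comparison was -0.17 over all barcodes. Whether library making or sequencing contributed was not tested, and antibody and library cannot be told apart.

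**Figure D4:**
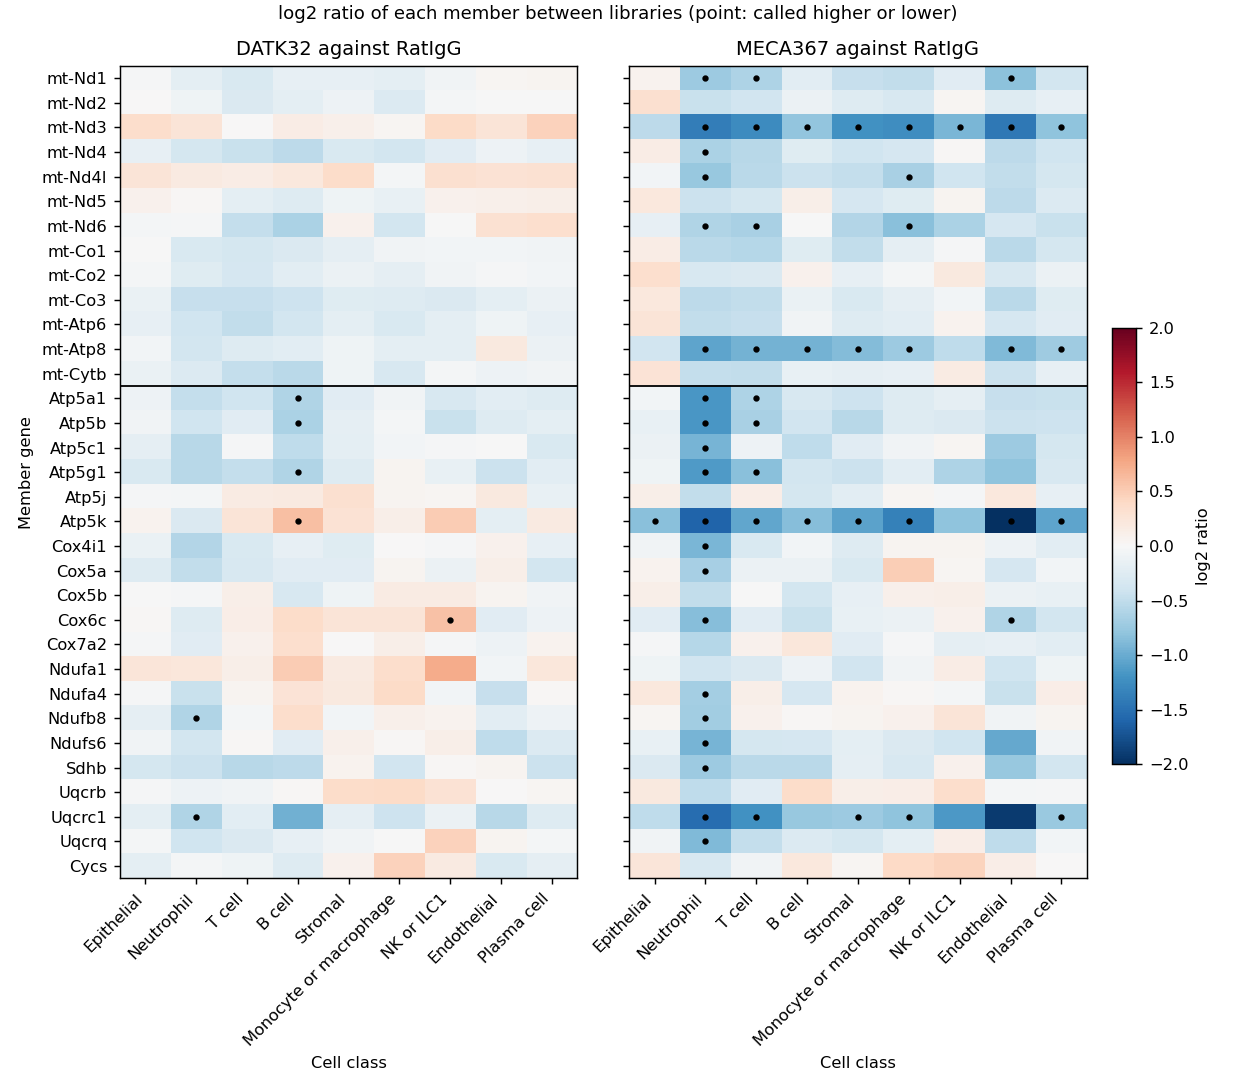
Log2 ratio of each member (rows; mt- members above the line) in 9 named cell classes (columns) for DATK32 against RatIgG (left) and MECA367 against RatIgG (right); black points mark members called higher or lower. On the right, mt-Nd3, mt-Atp8, Atp5k and Uqcrc1 are below 0 in every class, and the neutrophil-like column holds the most points; 2 nuclear members under 50 counts in the endothelial-like class are drawn there and could not be called.

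Atp5k and Cycs, which encodes cytochrome c, are printed with their promoters because both hold the core site of NRF1, a factor known to act on nuclear respiratory genes, yet they differed in the comparison above: Cycs was not called in any class, with ratios from -0.33 to 0.44. Sequences are RefSeq promoters (GRCm38.p6, minus strand), and capitals mark the core GCGCATGCG or its reverse complement CGCATGCGC.
Atp5k, chr5:108434411-108434479: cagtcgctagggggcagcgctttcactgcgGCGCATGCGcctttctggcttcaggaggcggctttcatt
Cycs, chr6:50566592-50566660: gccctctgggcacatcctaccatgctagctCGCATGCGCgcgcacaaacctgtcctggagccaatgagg
Searched on both strands, windows of 250 bases before to 50 after the gene start held the core in 3 of the 15 nuclear members with a promoter entry (20%; Uqcrc1 is the other) and in 1.95% of all 27025 genes. An ETS site, CCGGAAG, was in 3 of the 15 and in 9.93% of all genes. A match is a description and not a bound site. The RefSeq start of Atp5k lies inside the GENCODE gene given above, so its marked site overlaps the start of that gene.

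In neutrophil-like barcodes the nuclear members as a group were lower in MECA367, and this went with epithelial RNA. They stood at 9053 CPM in RatIgG, 6982 in DATK32 and 4963 in MECA367, and 14 of 20 were called lower in MECA367 than in RatIgG, beside 26.7% of all genes. Their median log2 ratio was -0.79, beside -0.48 for all genes, and 47 of 62 other subunits were lower too. Barcodes with over 0.5% epithelial marker UMIs made up 31.7%, 19.3% and 13.2% of this class. Without them the nuclear members stood at 2976, 3037 and 2863, with a log2 ratio of -0.06 between MECA367 and RatIgG, and 3 of 20 were called lower beside 10.4%. Median-of-ratios scaling moved this class by 0.45 and gave -0.42 for the group. Removing the highest doublet scores did not take the difference away. The group was then called lower in DATK32 than in RatIgG, and higher in DATK32 than in MECA367. These values are given with the processing alternatives, and the cause of the difference was not tested.

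**Figure D5:**
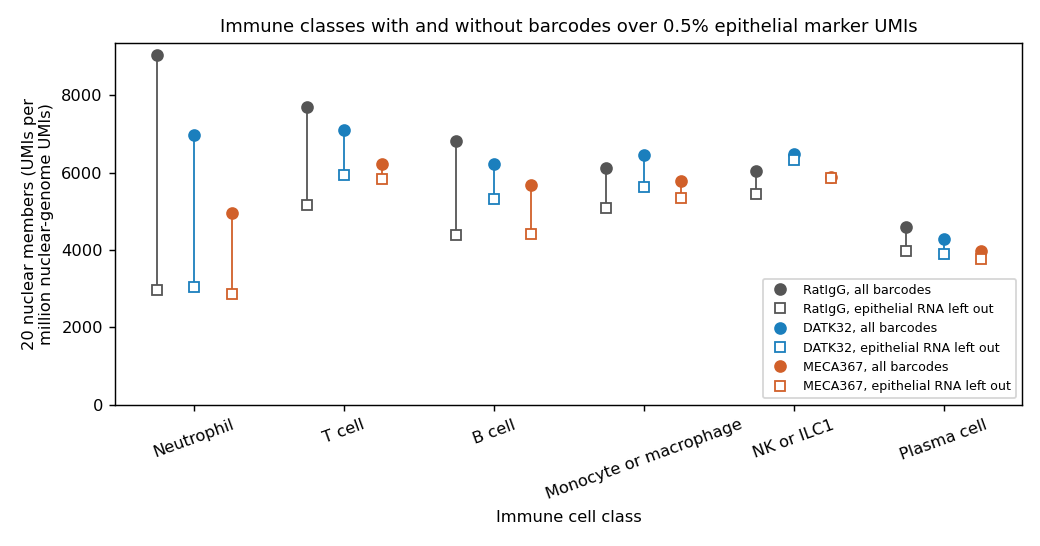
Summed level of the 20 nuclear members (CPM) in 6 immune cell classes for each library, with all barcodes (circles) and without barcodes holding over 0.5% epithelial marker UMIs (open squares). The neutrophil-like values of 9053, 6982 and 4963 become 2976, 3037 and 2863.

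The same barcodes bore on the other immune classes to a smaller degree. In T-cell-like barcodes they made up 20.6%, 11.5% and 3.80%, and nuclear members went from 7689, 7091 and 6222 with them to 5157, 5947 and 5839 without. In MECA367 against RatIgG, 5 of 20 nuclear members were lower with them (background 12.8%) and 1 without (3.49%), when 1 was also higher (2.62%). Without them, the neutrophil-like class held the lowest nuclear members of the 9 classes in each library, below the plasma-cell-like values of 3983, 3898 and 3767. Its share of mt- UMIs was then 6.30%, 6.10% and 5.51%, above the plasma-cell-like 3.12%, 3.35% and 2.96%. By these values the class with the lower nuclear members had the higher share of mt- UMIs. Immunoglobulin UMIs count in the plasma-cell-like denominators, and this contrast was not tested without them.

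In cluster 3 the mt- and nuclear members differed in opposite directions. There, 11 of 13 mt- members were called higher in MECA367 than in RatIgG (background 5.06%) and 16 of 20 nuclear members lower (8.34%), with median log2 ratios of 1.02 and -0.73 beside -0.10 for all genes. Of the other subunits, 38 of 61 were lower, among them Cox6a1 at -1.24, Atp5g2 at -1.18 and Cox8a at -1.17. There were 83.1 mt- UMIs for each nuclear member UMI in MECA367, 28.5 in DATK32 and 23.3 in RatIgG. Barcodes over 40% mt- UMIs were 29.3% of the cluster in MECA367, 7.17% in DATK32 and 6.31% in RatIgG. Among barcodes within the 10% limit the mt- log2 ratio was -0.05, while nuclear members stood at 10465, 6893 and 5460 in RatIgG, DATK32 and MECA367. In cluster 4, 8 of 13 mt- members were higher in MECA367 (4.26%) and 2 nuclear ones lower (4.8%). The summed mt- ratio was 0.69, and within the limit the ratio was -0.18.

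In the epithelial-like class, the largest in RatIgG and DATK32, few members differed by the pooled counts. Clusters 3 and 4, whose best marker score was also the epithelial one, are not part of this class. The mt- members had a summed log2 ratio of 0.21 and nuclear members one of -0.07 between MECA367 and RatIgG. As a mean over barcodes, which gives each barcode equal weight, the mt- ratio was 0.67 and called higher, and the nuclear one was -0.20. By the pooled counts Atp5k was the only member called there, beside 3.56% of 11969 genes called lower. Barcodes over 40% mt- UMIs were 7.95% of the class in MECA367, 2.15% in DATK32 and 1.21% in RatIgG.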

How the data were processed

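Raw UMI counts per gene and barcode were deposited by the authors for 3 libraries; per the submitters' processing notes they used Cell Ranger 6.0.2 and build mm10, and per the labels' protocols a 10x 3' v3.1 kit and a shared sequencing lane. Annotation and strand setting are not given in the sources used here. UMIs count molecules at 3' ends, so levels were not divided by length. Barcodes were clustered with scanpy 1.11.5 (2000 variable genes, 30 components, 15 neighbours, resolution 1.0, seed 1) without mt-, member and listed pathway genes. A cluster took a class at a mean marker score of at least 0.4 and a lead of 0.3, thresholds set after the data were seen. Scrublet's own threshold marked 1 barcode in each library, so doublets remain. Genes with at least 50 counts over the 3 libraries, in classes with at least 100 barcodes in each, were compared. The ratio code was tested on simulated data. Members and lists were chosen with earlier results of these data known. All members could be named; of other listed pathway genes, the 3 highest and 3 lowest called in a comparison and class.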

Additional observations from a re-analysis of the deposited data

Results flagged for a closer look

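Some members were called higher in 1 cell class or cluster and lower in another for the same pair of libraries. Each class is 1 sum per library, so these differences between classes were not tested. The log2 ratio of mt-Nd1 (MECA367 against RatIgG) was 0.97 in cluster 3 and -0.82 in endothelial-like barcodes. The value for mt-Nd4 (MECA367 against RatIgG) was 1.02 in cluster 3 and -0.63 in neutrophil-like barcodes. For the pair of libraries the log2 ratio of mt-Nd4l (MECA367 against RatIgG) was 0.84 in cluster 3 and -0.76 in neutrophil-like barcodes. The log2 ratio of mt-Nd6 (MECA367 against RatIgG) was 0.93 in cluster 3 and -0.84 in monocyte- or macrophage-like barcodes. The value for Cox5a (MECA367 against RatIgG) was 0.67 in cluster 8 and -0.77 in cluster 3. For the pair of libraries the log2 ratio of Ndufb8 (MECA367 against RatIgG) was 0.67 in cluster 8 and -0.70 in cluster 3. The log2 ratio of Uqcrb (MECA367 against RatIgG) was 0.59 in cluster 9 and -0.67 in cluster 3. The value for mt-Nd1 (DATK32 against MECA367) was 0.87 in endothelial-like barcodes and -0.87 in cluster 3. For the pair of libraries the log2 ratio of mt-Nd5 (DATK32 against MECA367) was 0.63 in endothelial-like barcodes and -0.85 in cluster 3. The log2 ratio of mt-Nd6 (DATK32 against MECA367) was 0.78 in plasma-cell-like barcodes and -0.71 in cluster 3. Cluster 3, led by Gm26917 and Gm42418, was 1 side of each of these differences. Its share of barcodes over 40% mt- UMIs was 29.3% in MECA367 and 6.31% in RatIgG. The part of those barcodes in the ratios was measured only by the 10% limit, with summed ratios given with the processing alternatives. Within that limit, cluster 3 ratios of MECA367 to RatIgG were -0.08 for mt-Nd1, -0.19 for mt-Nd4 and -0.41 for mt-Nd4l, none called. DATK32 to MECA367 gave -0.10 for mt-Nd1 and -0.05 for mt-Nd5, not called. mt-Nd6 kept both calls, at 1.14 and -0.61. Cox5a, Ndufb8 and Uqcrb stayed lower in MECA367 than in RatIgG, at -0.94, -1.06 and -1.13.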

How the results depend on the processing

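No paired analysis was possible because each group has 1 library. The libraries differ in antibody, mice and handling at once, and counting intervals do not cover these. Classes with few barcodes, such as endothelial-like with 107 to 122, resolve only large differences. Over 14 alternatives, 1291 of 1413 values kept their direction and call, 28 lost a call, 55 gained one, 35 counts of calls moved by over 1.5 times and 4 values reversed; the causes were not tested. Clusters 3 and 4 have no value where barcodes were clustered again or sorted by their own markers, nor do classes left with under 100 barcodes in a library. With at most 10% mt- UMIs, summed mt- members against all other barcodes had log2 ratios of -0.14 (DATK32) and 0.21 (MECA367) in B-cell-like barcodes, -0.54 (RatIgG), -0.47 (DATK32) and -0.44 (MECA367) in endothelial-like barcodes, 0.67 (RatIgG), 0.66 (DATK32) and 0.73 (MECA367) in epithelial-like barcodes. Levels of summed mt- members against all other barcodes had log2 ratios of -0.37 (RatIgG), -0.45 (DATK32) and -0.18 (MECA367) in monocyte- or macrophage-like barcodes, -0.53 (RatIgG), -0.56 (DATK32) and -0.38 (MECA367) in NK- or ILC1-like barcodes, -0.58 (MECA367) in neutrophil-like barcodes. In sum, the mt- members against all other barcodes had log2 ratios of -0.25 (DATK32) and -0.094 (MECA367) in stromal-like barcodes, -0.30 (DATK32) and -0.057 (MECA367) in T-cell-like barcodes. The summed nuclear members against all other barcodes had log2 ratios of -0.62 (DATK32) in neutrophil-like barcodes, -0.59 (DATK32) and -0.57 (MECA367) in stromal-like barcodes. The ratios (log2) of libraries were -0.62 for mt- members of MECA367 to RatIgG (neutrophil-like), -0.60 for nuclear members of DATK32 to RatIgG (cluster 3) and -0.048 for mt- members of MECA367 to RatIgG (cluster 3). Log2 ratios between libraries were -0.078 for mt- members of DATK32 to MECA367 (cluster 3), -0.18 for mt- members of MECA367 to RatIgG (cluster 4) and 0.056 for mt- members of DATK32 to MECA367 (cluster 4). Gene and class pairs called were 1 mt- members higher for DATK32 to RatIgG (from 0), 0 nuclear members lower for DATK32 to RatIgG (from 5) and 1 nuclear members higher for MECA367 to RatIgG (from 0). With at least 1000 UMIs and 500 genes, the summed mt- members against all other barcodes had log2 ratios of -0.49 (DATK32) in T-cell-like barcodes. Summed nuclear members against all other barcodes had log2 ratios of -0.62 (DATK32) in stromal-like barcodes. Between libraries, log2 ratios were 0.67 for nuclear members of DATK32 to MECA367 (neutrophil-like) and -0.67 for mt- members of MECA367 to RatIgG (T-cell-like). Gene and class pairs called were 0 nuclear members higher for DATK32 to RatIgG (from 2) and 2 nuclear members lower for DATK32 to RatIgG (from 5). At clustering resolution 0.5, the summed mt- members against all other barcodes had log2 ratios of -0.60 (RatIgG) in stromal-like barcodes. Summed nuclear members against all other barcodes had log2 ratios of -0.75 (MECA367) in B-cell-like barcodes, 0.58 (RatIgG) and 0.51 (DATK32) in epithelial-like barcodes, -0.60 (DATK32) in stromal-like barcodes. Counts of called gene and class pairs were 1 nuclear members higher for DATK32 to RatIgG (from 2). With the pathway genes kept in the clustering, in sum, the mt- members against all other barcodes had log2 ratios of -0.60 (RatIgG) in stromal-like barcodes. The pairs of gene and class called were 1 mt- members lower for DATK32 to RatIgG (from 0) and 3 nuclear members lower for DATK32 to RatIgG (from 5). With classes from each barcode's own marker UMIs, summed mt- members against all other barcodes had log2 ratios of 1.1 (RatIgG), 1.18 (DATK32) and 1.47 (MECA367) in epithelial-like barcodes, -0.94 (RatIgG) in stromal-like barcodes, -1.33 (RatIgG) in T-cell-like barcodes. Levels of summed nuclear members against all other barcodes had log2 ratios of -0.60 (MECA367) in monocyte- or macrophage-like barcodes, -1.11 (RatIgG) and -1.19 (DATK32) in neutrophil-like barcodes, -0.72 (DATK32) in stromal-like barcodes. In sum, the nuclear members against all other barcodes had log2 ratios of -0.87 (RatIgG) and -0.63 (DATK32) in T-cell-like barcodes. The ratios (log2) of libraries were -0.45 for nuclear members of MECA367 to RatIgG (neutrophil-like). Called pairs of gene and class were 1 mt- members higher for DATK32 to RatIgG (from 0), 1 nuclear members lower for DATK32 to RatIgG (from 5), 1 mt- members higher for MECA367 to RatIgG (from 0) and 10 mt- members lower for MECA367 to RatIgG (from 24). Counts of called gene and class pairs were 4 nuclear members higher for MECA367 to RatIgG (from 0), 14 nuclear members lower for MECA367 to RatIgG (from 29), 16 mt- members higher for DATK32 to MECA367 (from 27) and 1 mt- members lower for DATK32 to MECA367 (from 0). Gene and class pairs called were 11 nuclear members higher for DATK32 to MECA367 (from 17) and 2 nuclear members lower for DATK32 to MECA367 (from 0). With the highest doublet scores removed, the summed mt- members against all other barcodes had log2 ratios of -0.71 (RatIgG) in B-cell-like barcodes, -0.87 (RatIgG) in stromal-like barcodes, -0.72 (RatIgG) in T-cell-like barcodes. Summed nuclear members against all other barcodes had log2 ratios of -0.66 (MECA367) in monocyte- or macrophage-like barcodes, -1.23 (DATK32) in neutrophil-like barcodes, -0.70 (DATK32) in stromal-like barcodes. Levels of summed nuclear members against all other barcodes had log2 ratios of -0.90 (RatIgG) and -0.75 (DATK32) in T-cell-like barcodes. Log2 ratios between libraries were -0.94 for nuclear members of DATK32 to RatIgG (neutrophil-like), -0.68 for mt- members of MECA367 to RatIgG (neutrophil-like) and 0.66 for nuclear members of DATK32 to MECA367 (neutrophil-like). The pairs of gene and class called were 4 nuclear members higher for DATK32 to RatIgG (from 2), 16 nuclear members lower for DATK32 to RatIgG (from 5), 1 nuclear members higher for MECA367 to RatIgG (from 0) and 1 mt- members lower for DATK32 to MECA367 (from 0). Called pairs of gene and class were 1 nuclear members lower for DATK32 to MECA367 (from 0). Without immune barcodes holding epithelial RNA, levels of summed mt- members against all other barcodes had log2 ratios of -0.77 (RatIgG) in B-cell-like barcodes, -0.78 (RatIgG) and -0.85 (DATK32) in neutrophil-like barcodes, -0.73 (RatIgG) in T-cell-like barcodes. In sum, the nuclear members against all other barcodes had log2 ratios of -0.89 (MECA367) in B-cell-like barcodes, -0.65 (MECA367) in monocyte- or macrophage-like barcodes, -1.84 (RatIgG) and -1.75 (DATK32) in neutrophil-like barcodes. The summed nuclear members against all other barcodes had log2 ratios of -1.05 (RatIgG) and -0.78 (DATK32) in T-cell-like barcodes. Log2 ratios between libraries were -0.057 for nuclear members of MECA367 to RatIgG (neutrophil-like). Counts of called gene and class pairs were 3 mt- members higher for DATK32 to RatIgG (from 0), 5 nuclear members higher for DATK32 to RatIgG (from 2), 0 nuclear members lower for DATK32 to RatIgG (from 5) and 2 nuclear members higher for MECA367 to RatIgG (from 0). Gene and class pairs called were 12 nuclear members lower for MECA367 to RatIgG (from 29), 10 nuclear members higher for DATK32 to MECA367 (from 17) and 2 nuclear members lower for DATK32 to MECA367 (from 0). With levels scaled to all UMIs, log2 ratios between libraries were 0.74 for nuclear members of DATK32 to MECA367 (cluster 3), 0.56 for mt- members of MECA367 to RatIgG (cluster 4) and -0.55 for mt- members of DATK32 to MECA367 (cluster 4). Called pairs of gene and class were 1 nuclear members lower for DATK32 to RatIgG (from 5). As a mean over barcodes, the ratios (log2) of libraries were 0.64 for mt- members of MECA367 to RatIgG (all barcodes) and 0.67 for mt- members of MECA367 to RatIgG (epithelial-like). With median-of-ratios size factors, log2 ratios between libraries were -0.42 for nuclear members of MECA367 to RatIgG (neutrophil-like). The pairs of gene and class called were 0 nuclear members lower for DATK32 to RatIgG (from 5), 14 mt- members lower for MECA367 to RatIgG (from 24), 1 nuclear members higher for MECA367 to RatIgG (from 0) and 16 nuclear members lower for MECA367 to RatIgG (from 29). With immunoglobulin genes out of the denominator, chosen after seeing the data, summed mt- members against all other barcodes had log2 ratios of -0.66 (RatIgG) in stromal-like barcodes. Levels of summed nuclear members against all other barcodes had log2 ratios of -0.61 (MECA367) in B-cell-like barcodes, -0.61 (MECA367) in monocyte- or macrophage-like barcodes, -0.60 (DATK32) in neutrophil-like barcodes. In sum, the nuclear members against all other barcodes had log2 ratios of -0.36 (RatIgG), -0.29 (DATK32) and -0.028 (MECA367) in plasma-cell-like barcodes, -0.64 (DATK32) in stromal-like barcodes. Without mt-Nd4l, mt-Atp8 and mt-Nd6, the summed mt- members against all other barcodes had log2 ratios of -0.60 (RatIgG) in stromal-like barcodes.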
